A study of Mus musculus with 2 samples.

Results

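The 8 genes of ENaC and of the mineralocorticoid response were followed through the cells of a control and an ischemic mouse kidney. They were chosen by symbol, so 8 of the 32285 genes listed in the scRNAseq counts are described. Scnn1a, Scnn1b and Scnn1g encode the alpha, beta and gamma subunits of ENaC, the epithelial sodium channel. Hsd11b2 encodes the enzyme that inactivates glucocorticoid ahead of the mineralocorticoid receptor, and Nr3c2 encodes that receptor. Sgk1 is a kinase induced by corticosteroids, Nedd4l is a ubiquitin ligase that removes ENaC from the membrane, and Tsc22d3 (GILZ) is a leucine zipper protein induced by corticosteroids. The ischemia sample was a kidney that underwent 27 min of unilateral ischemia and 24 h of reperfusion, and the control sample was an uninjured contralateral kidney. Both were kidneys of the wildtype genotype, from the male sex of the C57BL/6J strain at 19 weeks of age. A contralateral kidney belongs to an animal with an injured kidney, so the control is no kidney of an uninjured mouse. With 1 library per condition, library and condition cannot be told apart and no test between them was possible.

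In the distal nephron, sodium leaves the urine through ENaC, which is built from all 3 subunits. Aldosterone activates the mineralocorticoid receptor, which raises transcription of the alpha subunit and of Sgk1, and Sgk1 phosphorylates the product of Nedd4l so that less channel is removed. Hsd11b2 keeps the receptor selective for aldosterone in the connecting tubule and in principal cells of the collecting duct. Intercalated cells in the same segments transport acid and base, and the thick ascending limb and early distal convoluted tubule take up sodium through other transporters.

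After filtering, 12586 control and 13116 ischemia cells remained, with 124679362 and 128733541 UMIs (unique molecular identifiers, each standing for a captured transcript). Of the kept barcodes, 58 occurred in both libraries. Clusters were named from marker genes, which gave 14 named types and 5 unnamed groups. The unnamed groups held 11515 cells, most of them in a group of 4575 control and 5850 ischemia cells with medians of 895 and 797 UMIs. The 3363 cells of the distal clusters were clustered again, without the 8 genes among the variable genes. This separated cells like those of the collecting duct (CD-PC-like, 168 control and 148 ischemia cells), the connecting tubule (CNT-like, 225 and 214), the distal convoluted tubule (DCT-like, 330 and 252) and intercalated cells (Intercalated-like, 208 and 152). Thick ascending limb (TAL-like) cells numbered 863 and 833. These names were rebuilt from markers and may differ from those of the study.

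The names were checked against their defining markers, with levels in CPM, the UMIs of a gene per 1000000 UMIs of all cells of the type. In CD-PC-like cells Aqp2, the water channel regulated by vasopressin, stood at 5359.8 and 2068 CPM (control and ischemia, an order kept for all such pairs). All 8 principal cell markers were detected in both libraries, with summed levels of 11673 and 5346 CPM. The same cells carried 9 of 9 intercalated markers in the control and 8 of 9 in the ischemia library (summed 1758 and 861 CPM, with Hmx2 at 0 in the ischemia library). CNT-like cells carried all 6 connecting tubule markers, at 75824 and 40450 CPM summed. Intercalated-like cells had 9 of 9 intercalated markers in both libraries (summed 7739 and 6439 CPM), together with connecting tubule markers at 22332 and 16691 CPM summed.

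In the GRCm38 annotation, Scnn1a lies on chromosome 6 from 125320659 to 125344943, Hsd11b2 on chromosome 8 from 105518755 to 105523988 and Nr3c2 on chromosome 8 from 76899442 to 77245012. All 3 are on the plus strand.

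Sequences before the transcription start are shown for a pair of neighbours with similar patterns over groups of cells and for a pair of steroid-induced genes. Scnn1g (chromosome 7, 121734479 to 121768475) and Scnn1b (chromosome 7, 121865038 to 121918514) lie on the plus strand with 96562 bases between them. Sgk1 (chromosome 10, 21882184 to 21999903, plus strand) and Tsc22d3 (chromosome X, 140539528 to 140600659, minus strand) are classic targets of corticosteroids. RefSeq windows of GRCm38.p6, from 250 bases before to 50 bases after a start, matched 5 of the 8 genes. Both strands were searched for the palindromic steroid response element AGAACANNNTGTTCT and for the hexamer AGAACA, which the full element contains on each strand. The full element occurred in 3 of 32851 windows (0.00913%) and the hexamer in 6233 (19.0%). Capitals mark the hexamer on either strand, or the full element, in the 250 bases before each start, printed on the gene's strand.
Sgk1, chr10:21993640-21993889, plus strand: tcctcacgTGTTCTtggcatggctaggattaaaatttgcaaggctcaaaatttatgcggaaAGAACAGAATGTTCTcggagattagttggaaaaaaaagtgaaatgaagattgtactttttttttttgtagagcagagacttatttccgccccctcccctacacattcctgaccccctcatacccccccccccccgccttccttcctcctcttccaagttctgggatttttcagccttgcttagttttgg
Tsc22d3, chrX:140600523-140600772, minus strand: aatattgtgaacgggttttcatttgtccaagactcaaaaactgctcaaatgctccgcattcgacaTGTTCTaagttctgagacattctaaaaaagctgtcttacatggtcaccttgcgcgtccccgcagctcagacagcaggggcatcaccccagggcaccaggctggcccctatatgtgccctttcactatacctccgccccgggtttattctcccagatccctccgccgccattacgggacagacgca
Scnn1b, chr7:121864788-121865037, plus strand: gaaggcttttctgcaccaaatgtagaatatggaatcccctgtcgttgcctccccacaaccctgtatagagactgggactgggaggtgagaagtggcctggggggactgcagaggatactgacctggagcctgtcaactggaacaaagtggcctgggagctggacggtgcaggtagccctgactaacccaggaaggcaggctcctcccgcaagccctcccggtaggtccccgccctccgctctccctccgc
Scnn1g, chr7:121734229-121734478, plus strand: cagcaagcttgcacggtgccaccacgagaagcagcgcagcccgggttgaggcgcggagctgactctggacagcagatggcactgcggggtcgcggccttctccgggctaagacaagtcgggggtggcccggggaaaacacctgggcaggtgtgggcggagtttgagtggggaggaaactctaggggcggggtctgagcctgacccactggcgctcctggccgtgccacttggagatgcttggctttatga

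Of the 6 Sgk1 windows, the one shown held the full element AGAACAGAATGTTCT, which begins 189 bases before the start, and another hexamer upstream of it. The Sgk1 windows that begin at 21881934 and 21991973 each held 1 hexamer and 0 full elements, and the rest held 0 hexamers. Of the 3 Tsc22d3 windows, the one shown held 1 hexamer and 0 full elements. The windows of Scnn1b, Scnn1g and Nr3c2 held 0 hexamers. These matches describe letters in short windows and are no measurement of binding.

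Each level below has an exact 95% Poisson interval, which covers counting error only. UMIs were counted at the 3′ end and not divided by length, so levels are compared for a gene between types and libraries and not between genes. For 6 of the 8 genes the highest level among named types was in CD-PC-like, CNT-like or Intercalated-like cells in both libraries. The exceptions were Sgk1, highest in endothelial (EC-like) cells, and Tsc22d3, highest in B cell-like cells. Fewer transcripts per cell and a different mix of cells within a type cannot be told apart in such sums.

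Scnn1b stood at 308 CPM (289 to 327) in control CD-PC-like cells, 252 CPM (238 to 267) in CNT-like cells and 202 CPM (189 to 215) in Intercalated-like cells, and no interval overlapped the next. Scnn1g followed the same order at 299, 259 and 172 CPM. Hsd11b2 did so as well, at 1672 CPM (1628 to 1717), 820.3 CPM and 696 CPM. By CPM of all UMIs, these 3 genes thus had their control levels in the same order over the same types. That total includes mitochondrial UMIs, which were 16.4% in control CD-PC-like and 29.9% in control CNT-like cells. Without them in the total, Scnn1g is higher in control CNT-like than in control CD-PC-like cells, so its order depends on the scaling. The place of CNT-like cells also depends on the Kcne1-led cells described below, which stayed unnamed at a sub-clustering resolution of 0.5. Control CNT-like sub-clusters then held Hsd11b2 at 368 and 238 CPM and Scnn1b at 168 and 121 CPM, below Intercalated-like cells. Scnn1g stood at 189 and 91.5 CPM in them. In the proximal tubule (PT-like cells), taken as a background type for ENaC, Scnn1b stood at 1.59 CPM, Scnn1g at 1.68 CPM and Hsd11b2 at 5.84 CPM in the control. EC-like cells, a further background type, held more, at 7.02, 5.21 and 21.2 CPM.

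Scnn1a reached further along the nephron. In the control it stood at 293 CPM (278 to 308) in CNT-like, 265 CPM (251 to 281) in Intercalated-like, 250.1 CPM (233 to 268) in CD-PC-like and 239 CPM (227 to 251) in DCT-like cells, and each interval overlapped the next. TAL-like cells carried 149 CPM of Scnn1a beside 1.90 CPM of Scnn1b. The background level of Scnn1a was 3.46 CPM in PT-like and 13.2 CPM in EC-like cells.

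Nr3c2 and Nedd4l were present in many types. In the control Nr3c2 stood at 447 CPM in CD-PC-like, 392 CPM in Intercalated-like, 328 CPM in CNT-like, 186 CPM in DCT-like and 127 CPM in EC-like cells, with no overlap among these 5 intervals. Nedd4l stood at 728 CPM in CD-PC-like, 531 CPM in Intercalated-like, 279 CPM in thin limb-like and 189 CPM in CNT-like cells. Unlike the subunits, Nedd4l was lower in CNT-like than in thin limb-like cells.

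**Figure D1:**
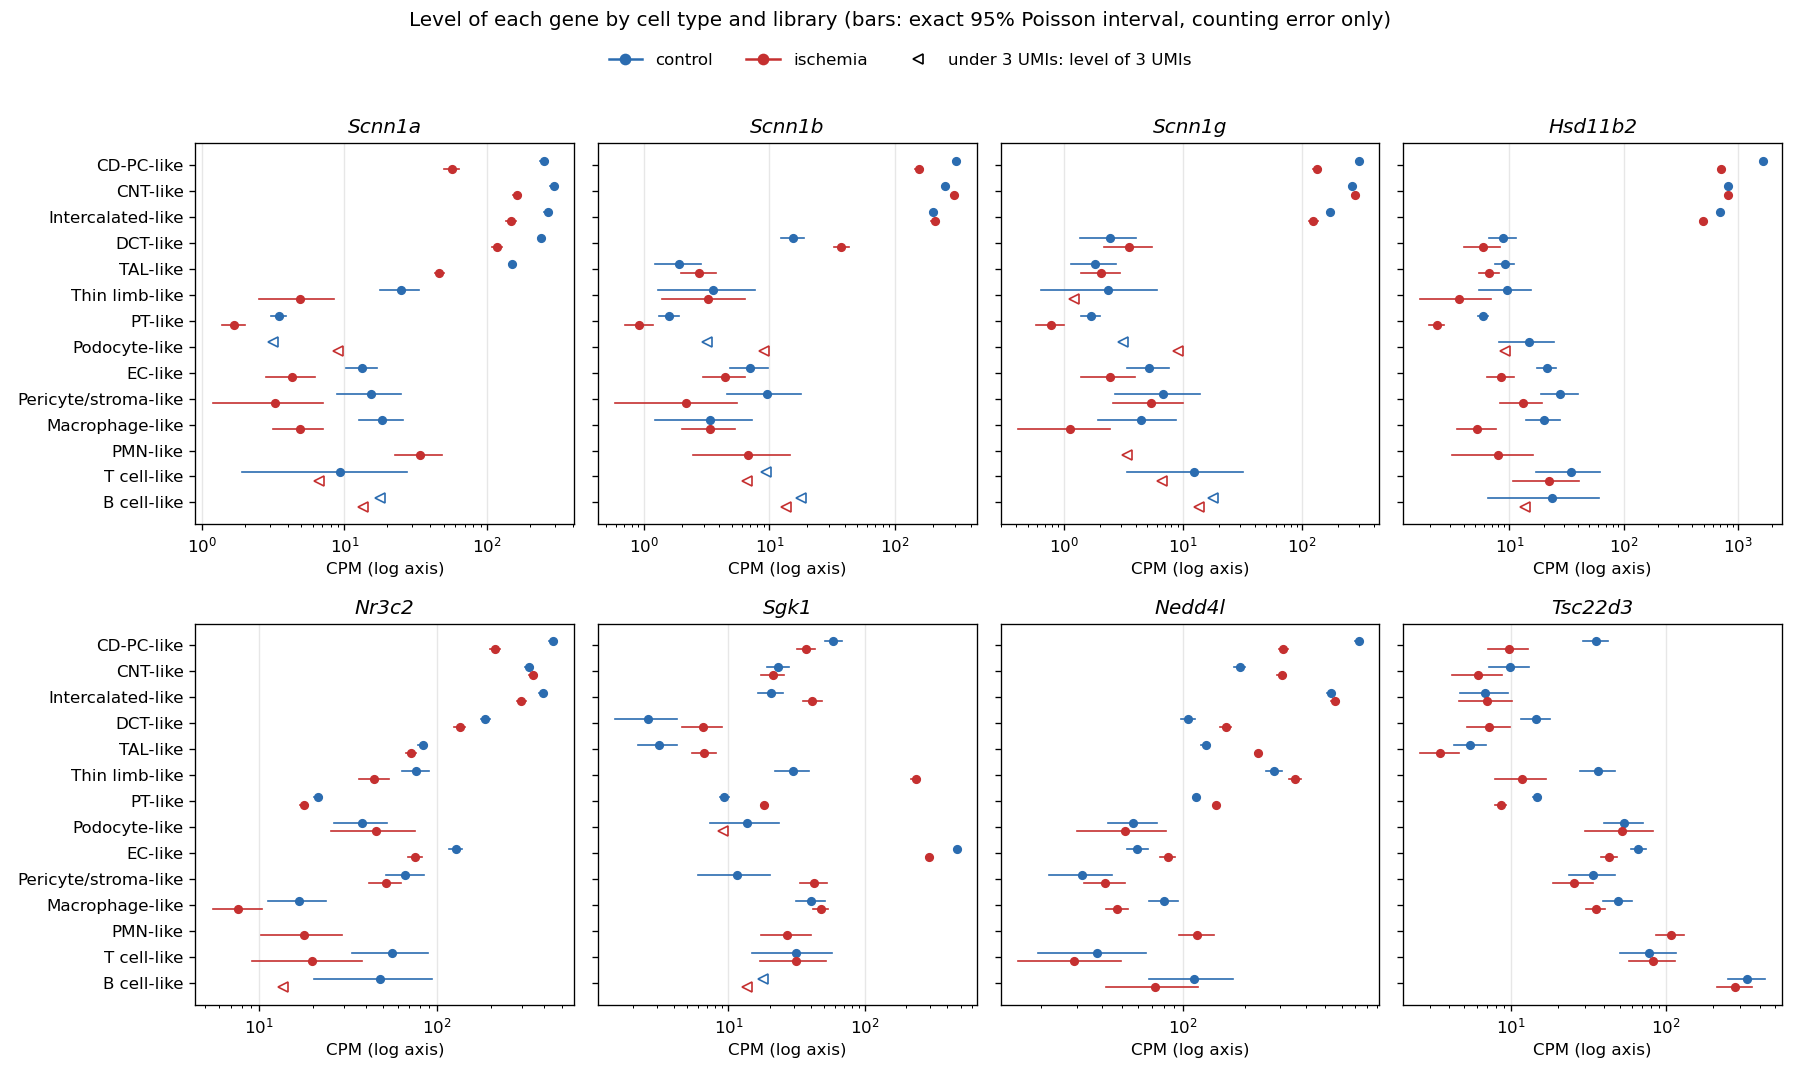
Level of each of the 8 genes in CPM (log axis) in each named cell type, for the control and the ischemia library. Points are summed levels and bars are exact 95% Poisson intervals for counting error, open triangles mark the level of 3 UMIs where under 3 were counted, and a type with under 20 cells in a library is left out there (19 control PMN-like cells, the neutrophils). Scnn1b, Scnn1g and Hsd11b2 stand out in CD-PC-like, CNT-like and Intercalated-like cells, Scnn1a extends to DCT-like and TAL-like cells, and Sgk1 and Tsc22d3 are highest in EC-like and B cell-like cells. Most Intercalated-like UMIs of Scnn1b, Scnn1g and Hsd11b2 were in the Slc26a4-led sub-cluster described in the text.

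In the ischemia library CNT-like cells held the highest level of 5 of the 8 genes. These were Scnn1a at 162 CPM (151 to 174), Scnn1b at 293 CPM (278 to 308), Scnn1g at 277 CPM (262 to 292), Hsd11b2 at 812 CPM (787 to 838) and Nr3c2 at 345 CPM (329 to 362). For Scnn1a the interval overlapped that of Intercalated-like cells. CD-PC-like cells, which led for 5 genes in the control by CPM of all UMIs, led for none of the 8 in the ischemia library. Their level of Scnn1a, 56.6 CPM (50.1 to 63.7), lay below that of DCT-like cells at 117 CPM. The control order rests in part on cells rich in mitochondrial UMIs. With cells over 25% left out after naming, CNT-like cells led for Scnn1b, Scnn1g and Hsd11b2 in the control too. The CNT-like lead in the ischemia library rests in part on the Kcne1-led cells described below. At a sub-clustering resolution of 0.5 those cells stayed unnamed. Ischemia Hsd11b2 then stood at 229 and 159 CPM in the sub-clusters named CNT-like, below CD-PC-like cells at 705 CPM. Scnn1b stood there at 202 and 121 CPM, beside 207 CPM in the Intercalated-like cells of the main setting.

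CD-PC-like, CNT-like and Intercalated-like cells together were 4.78% of control and 3.92% of ischemia cells. They held 63.2% and 72.4% of all UMIs of the 3 subunits. The part from Intercalated-like cells came mainly from a sub-cluster, described below, that also carried connecting tubule and principal cell genes. The share in CNT-like cells was 25.2% (24.5 to 25.9, exact Clopper-Pearson 95% interval) in the control and 36.5% (35.5 to 37.5) in the ischemia library. That of TAL-like cells, nearly all Scnn1a, was 12.6% and 7.62%. Under a minimum of 1000 UMIs per cell the 3 types together held 54.8% and 54.6%. At that minimum the cells led by Kcne1 that are described below with CNT-like cells stayed unnamed.

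The libraries were then compared within each type. A gene is called past the fold where its ratio of ischemia to control CPM is at least 2 or at most 0.5, among genes with at least 100 UMIs in the type. In CD-PC-like cells all 8 genes were lower in the ischemia library and 6 of 8 were past the fold, against 14.3% of the 7813 genes with enough UMIs. Of all those genes, 8.64% were past it downward and 5.62% upward. The median ratio was 0.437 for the 8 genes and 0.887 for all.

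The alpha subunit had the lowest ratio. Scnn1a stood at 250.1 and 56.6 CPM in control and ischemia CD-PC-like cells, on 821 and 274 UMIs, a ratio of 0.226 (0.197 to 0.260, exact conditional 95% interval). Scnn1g stood at 299 and 134 CPM (0.447, 0.404 to 0.494). Scnn1b stood at 308 and 155 CPM (0.505, 0.459 to 0.555), just inside the fold and so not past it. The interval of Scnn1a did not overlap those of its partners.

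Both genes of steroid reception were lower as well. Hsd11b2 stood at 1672 and 705 CPM (0.422, 0.404 to 0.440). Nr3c2 stood at 447 and 212 CPM (0.474, 0.437 to 0.513). Downstream of the receptor, the ligase gene Nedd4l stood at 728 and 311 CPM (0.427, 0.400 to 0.455). Tsc22d3 was sparse, at 35.3 and 9.71 CPM on 116 and 47 UMIs (0.275, 0.191 to 0.389). Sgk1 had the highest ratio of the 8, at 58.5 and 37.0 CPM (0.632, 0.513 to 0.779), and lay inside the fold. Averaging the CPM of single cells in place of summing UMIs moved the ratio of Sgk1 to 0.945 that of Tsc22d3 to 0.429 and that of Scnn1g to 0.520, so that Scnn1g was no longer past the fold.

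Other measures differed between the libraries in these cells. The median CD-PC-like cell held 10967 (control) and 22756 UMIs (ischemia), with 16.4% and 9.62% mitochondrial UMIs. Lcn2, a secreted protein of injured tubules, stood at 2290.4 and 11403 CPM. The principal cell genes Aqp3 (1312 and 363 CPM), Aqp4 (515 and 172 CPM) and Fxyd4 (3727 and 2334 CPM) were lower too. Summed markers of the proximal tubule (1910 and 639 CPM) and of the distal convoluted tubule (388 and 108 CPM) were also lower. Those of endothelial cells (19.5 and 21.9 CPM) and of macrophages (47.2 and 50.6 CPM) were slightly higher. The part of these in the ratios was not tested. Without the cells that had 3 or more UMIs of intercalated markers, which left 123 control and 122 ischemia cells, 7 of 8 genes were past the fold. The share of all genes past the fold was not computed for these cells, so this count has no background.

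Single CD-PC-like cells varied widely around these sums. The CPM per cell of the 3 subunits together had a median of 827 in the control with quartiles of 433 and 1282, and 16 of 168 cells had no subunit UMI. In the ischemia library the median was 355 with quartiles of 71.8 and 631, and 19 of 148 cells had none. The quartile ranges of the libraries overlapped. Hsd11b2 had a median of 1255 and 333 CPM per cell (control and ischemia), with 30 and 37 cells at 0.

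**Figure D2:**
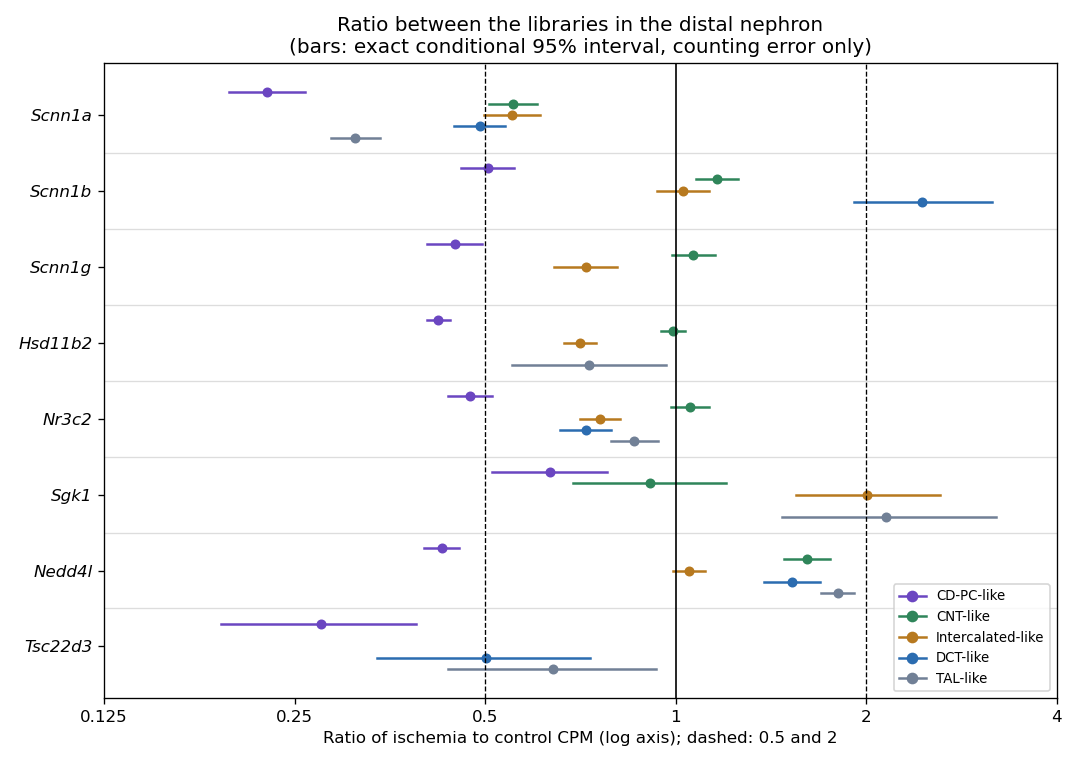
Ratio of ischemia to control CPM (log axis) for the 8 genes in types of the distal nephron, for genes with at least 100 UMIs in the type. Points are ratios and bars are exact conditional 95% intervals for counting error, with lines at 1 and at the fold limits of 0.5 and 2. Scnn1a lies below 1 in every type drawn (0.226 to 0.553), all CD-PC-like points lie below 1, and Nedd4l lies below 1 in CD-PC-like cells and above it in CNT-like, DCT-like and TAL-like cells.

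In CNT-like cells 7 genes had enough UMIs and 0 of 7 were past the fold, against 5.85% of 7697 genes. Their median ratio was 1.05, and that of all genes was 1.12. Scnn1a was the lowest, at 293 and 162 CPM (0.553, 0.506 to 0.604). Nedd4l was the highest, at 189 and 305 CPM (1.61, 1.48 to 1.75). Scnn1b stood at 252 and 293 CPM (1.16, 1.08 to 1.26) and Scnn1g at 259 and 277 CPM (1.07, 0.986 to 1.15). The intervals of Hsd11b2 (0.990, 0.947 to 1.03), Nr3c2 (1.05, 0.982 to 1.13) and Sgk1 (0.910, 0.689 to 1.20) held 1. With cells over 25% mitochondrial UMIs left out after naming, Scnn1a was past the fold at 0.476. Over the alternatives the ratio of Sgk1 was as low as 0.569 and that of Hsd11b2 as low as 0.618. The directions of Scnn1a and Nedd4l were the same under every alternative run, whereas those of the other 5 genes were not. Ratios over the alternatives ran from 0.896 to 1.19 for Scnn1b, from 0.886 to 1.10 for Scnn1g and from 0.878 to 1.12 for Nr3c2.

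The near-equal level of Hsd11b2 in CNT-like cells was a sum over groups of cells in unequal proportions. At a sub-clustering resolution of 0.5, nearly all CNT-like cells fell into a CNT-like sub-cluster (166 control and 132 ischemia cells) or a sub-cluster led by Kcne1, a potassium channel subunit (58 and 82). The Kcne1-led cells stayed unnamed, and Hsd11b2 was itself among their 10 leading genes. By mean log2 level over the median sub-cluster, the principal cell marker list scored highest in them (2.609), closely before the connecting tubule list (2.548). With a minimum of 1000 UMIs per cell, these scores were 2.389 and 1.645 in the sub-cluster led by Kcne1. Cells near to principal cells were thus counted within the CNT-like type. The Kcne1-led cells carried the principal cell gene Aqp2 at 1690.3 and 1608 CPM beside the connecting tubule gene S100g at 32284 and 17268 CPM. Connecting tubule genes differed in direction in them. Calb1 (5188.5 and 1105 CPM) and Slc8a1 (6347 and 2814 CPM) were lower in the ischemia library, and Trpv5 (299 and 567 CPM) was higher. The Kcne1-led cells held 21.5% of the UMIs of control CNT-like cells and 38.6% of those of ischemia CNT-like cells.

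Within each of the sub-clusters Hsd11b2 was lower in the ischemia library. It stood at 368 and 229 CPM in the CNT-like one (0.624, 0.568 to 0.684) and at 2465 and 1740.5 CPM in the Kcne1-led one (0.706, 0.670 to 0.744). With ischemia cells weighted to the control mix, an alternative chosen after the data were seen, its ratio was 0.677 in place of 0.990. A different mix of cells and a different state of the same cells cannot be told apart here, and neither was tested.

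Scnn1a was lower in both sub-clusters, at 288 and 174 CPM (0.603, 0.542 to 0.670) and 308 and 143 CPM (0.464, 0.393 to 0.547). Scnn1b had opposite directions, at 168 and 202 CPM in the CNT-like sub-cluster (1.21, 1.08 to 1.35) and 552 and 437 CPM in the Kcne1-led one (0.792, 0.711 to 0.883). Nedd4l was higher in both, with ratios of 1.46 and 1.44. In both libraries the Kcne1-led cells had more Scnn1b, Scnn1g and Hsd11b2 by CPM than CD-PC-like cells.

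**Figure D3:**
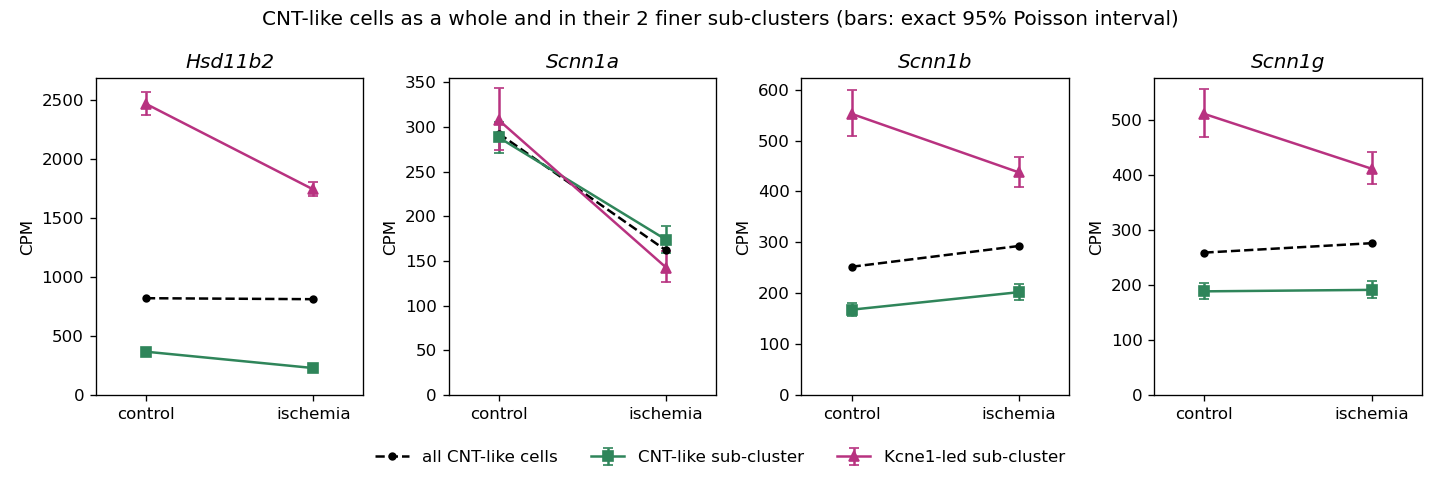
CPM of 4 genes in control and ischemia CNT-like cells as a whole and in their CNT-like and Kcne1-led sub-clusters at resolution 0.5. Bars on the sub-clusters are exact 95% Poisson intervals and the dashed line joins the levels of all CNT-like cells. Each vertical axis starts at 0. Hsd11b2 is nearly level in the whole (820.3 and 812 CPM) and lower in the ischemia library in both sub-clusters.

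In DCT-like cells 2 of 5 genes with enough UMIs were past the fold, in opposite directions, against 11.7% of 8458 genes. Scnn1a stood at 239 and 117 CPM (0.491, 0.447 to 0.538). Scnn1b stood at 15.3 and 37.5 CPM on 94 and 212 UMIs (2.45, 1.91 to 3.16). It was detected in 64 of 330 control and 97 of 252 ischemia cells, whose median depths were 18575 and 22722 UMIs. As background, it was detected in 2.73% of control and 1.78% of ischemia PT-like cells, with medians of 13836 and 17788 UMIs. In EC-like cells Scnn1b stood at 7.02 and 4.43 CPM. With a limit of 25% mitochondrial UMIs before clustering, the ratio of Scnn1b was 1.25, and with such cells left out after naming that of Scnn1a was 0.579, both inside the fold. Nedd4l stood at 106 and 161 CPM (1.53, 1.38 to 1.69) and Nr3c2 at 186 and 134 CPM (0.721, 0.656 to 0.791). Without integration of the libraries the DCT-like ratio of Nr3c2 was 1.60, on the other side of 1, and that of Nedd4l was 2.63, with 335 control and 89 ischemia cells.

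In TAL-like cells 2 of 6 genes were past the fold, against 14.0% of 10267 genes. Scnn1a stood at 149 and 46.4 CPM (0.312, 0.285 to 0.341). Sgk1, rare in this type, stood at 3.09 and 6.65 CPM (2.15, 1.47 to 3.21). Nedd4l, a gene of chromosome 18 (64887705 to 65217828 in GRCm38, plus strand), stood at 129 and 233 CPM (1.80, 1.70 to 1.91), inside the fold.

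In Intercalated-like cells 1 of 7 genes was past the fold, against 4.69% of 7884 genes. It was Sgk1, at 20.4 and 41.1 CPM (2.01, 1.55 to 2.62). Scnn1a stood at 265 and 146 CPM (0.551, 0.498 to 0.609) and Hsd11b2 at 696 and 491 CPM (0.706, 0.667 to 0.747). Scnn1b (1.03, 0.933 to 1.13) and Nedd4l (1.05, 0.992 to 1.11) had intervals that held 1.

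The transcripts of Intercalated-like cells were uneven. At resolution 0.5, a sub-cluster with the type A genes Aqp6, Kit and Slc4a1 among its leading genes (89 and 74 cells) held Hsd11b2 at 83.9 and 29.0 CPM and Scnn1g at 20.8 and 40.1 CPM. A sub-cluster led by the type B gene Slc26a4 (94 and 57 cells) held Hsd11b2 at 914 and 725 CPM and Scnn1g at 226 and 167 CPM. It held 784 of the 807 control and 429 of the 477 ischemia UMIs of Scnn1g in Intercalated-like cells. For Hsd11b2 it held 3175 of 3270 and 1857 of 1891. These Slc26a4-led cells had medians of 36872 and 39552 UMIs and carried S100g at 12707 and 10475 CPM and Aqp2 at 446 and 350.4 CPM. A smaller sub-cluster (25 and 20 cells) with Lsamp and Slc26a4 among its leading genes had Slc26a4 at 3798 and 3381 CPM, against 1116 and 842 CPM in the Slc26a4-led one. It held 2 and 0 UMIs of Hsd11b2 and 0 and 1 of Scnn1g, at medians of 3658 and 4114 UMIs per cell. Its S100g stood at 737 and 476 CPM. Scrublet called 0 doublets in both libraries, so droplets holding several cells were not removed.

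The share of a subunit among the UMIs of all 3 does not depend on the total of other genes, so it was compared between the libraries. Scnn1a made up 29.2% (27.5 to 30.9) of the subunit UMIs in control and 16.4% (14.6 to 18.2) in ischemia CD-PC-like cells. The shares were 36.4% (34.9 to 37.9) and 22.1% (20.8 to 23.5) in CNT-like cells and 41.5% (39.8 to 43.3) and 30.6% (28.5 to 32.8) in Intercalated-like cells. They were 93.1% (91.7 to 94.3) and 74.0% (71.0 to 76.9) in DCT-like cells and 97.6% (96.8 to 98.2) and 90.6% (88.3 to 92.6) in TAL-like cells. In these 5 types the Scnn1a share was lower in the ischemia library and the intervals did not overlap. The share was also lower without overlap in unnamed groups, at 47.6% (43.2 to 52.0) and 32.5% (26.7 to 38.8) in the large group with few UMIs per cell and at 71.1% (67.5 to 74.5) and 40.0% (34.8 to 45.3) in an unnamed distal sub-cluster. In PT-like cells, a background type, it was 51.4% (46.9 to 56.0) and 49.8% (43.2 to 56.4), and the intervals overlapped. Those of EC-like cells overlapped too, at 52.0% (42.9 to 60.9) and 38.4% (27.2 to 50.5). TAL-like cells held little Scnn1b (1.90 and 2.74 CPM) and Scnn1g (1.82 and 2.06 CPM). PT-like cells held 1.59 and 0.921 CPM of Scnn1b and 1.68 and 0.775 CPM of Scnn1g. EC-like cells held 7.02 and 4.43 CPM of Scnn1b and 5.21 and 2.44 CPM of Scnn1g. The TAL-like share thus mainly followed Scnn1a over levels that lay between those of the background types.

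**Figure D4:**
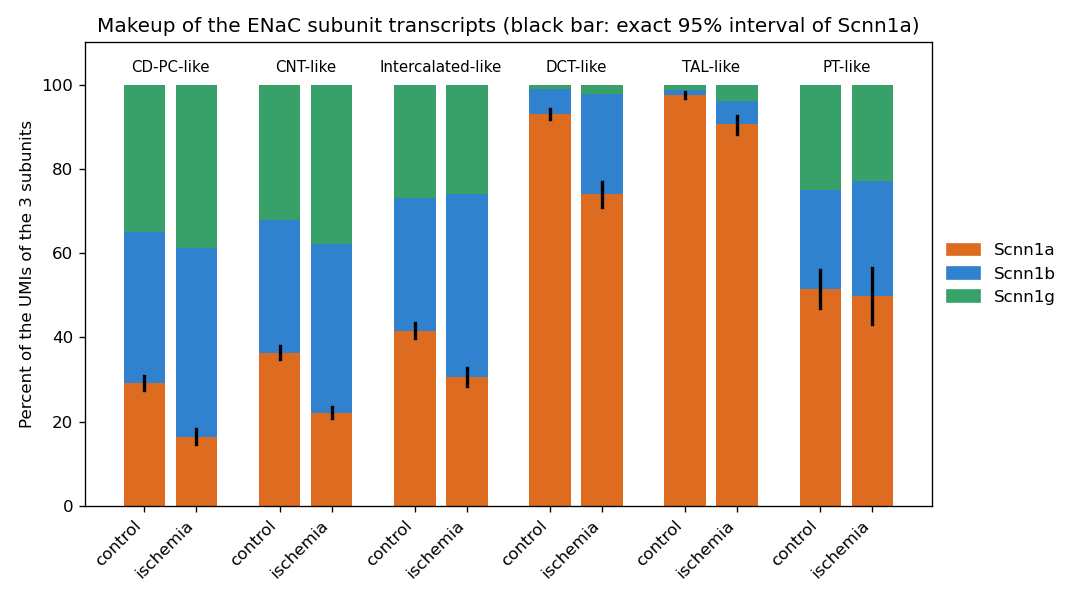
Percent of the UMIs of the 3 subunits that belong to Scnn1a, Scnn1b and Scnn1g in control and ischemia cells of each type, stacked to 100. The error bar is the exact 95% interval of the Scnn1a share. That share is lower in the ischemia library in the 5 distal types drawn, and in PT-like cells the intervals overlap.

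Detection of all 3 subunits in the same cell was counted next. At the depth of each cell this held for 98 of 168 (58.3%, 50.5 to 65.9) control and 72 of 148 (48.6%, 40.4 to 57.0) ischemia CD-PC-like cells, with overlapping intervals. Thinned to 3000 UMIs per cell, which left out 25 control and 9 ischemia cells, it held for 31 of 143 (21.7%, 15.2 to 29.3) and 2 of 139 (1.44%, 0.175 to 5.10). The overlap at full depth thus accompanied a median depth that was higher in the ischemia library. At 1000 UMIs the shares were 2.38% and 0.676%, on 4 and 1 cells.

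In CNT-like cells joint detection held for 39 of 218 (17.9%, 13.0 to 23.6) and 24 of 202 (11.9%, 7.76 to 17.2) control and ischemia cells at 3000 UMIs per cell, and these intervals overlapped. As background, all 3 subunits were found at full depth in 3 of 3918 control and 1 of 2814 ischemia PT-like cells, with median depths of 13836 and 17788 UMIs. In EC-like cells they were found in 0 of 904 and 2 of 1035, with median depths of 3803 and 4267 UMIs.

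Sgk1 was highest outside the ENaC-bearing cells, and in the ischemia library a group of 51 unnamed cells stood above every named type, at 397 CPM (348 to 452). EC-like cells held 57.7% of the Sgk1 UMIs of the control and 37.6% of those of the ischemia library. Their level was 471 and 293 CPM (0.622, 0.585 to 0.661). Of 5 genes with enough UMIs in EC-like cells, 1 was past the fold, against 4.2% of 9401 genes. It was Hsd11b2 at 21.2 and 8.40 CPM (0.395, 0.280 to 0.552), far below its level in CD-PC-like cells. Macrophage-like cells held Hsd11b2 at a like level, 20.1 and 5.24 CPM on 36 and 28 UMIs.

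In thin limb-like cells Sgk1 stood at 29.5 and 234 CPM on 50 and 578 UMIs, a ratio of 7.93 (5.93 to 10.8). It was detected in 19 of 88 control and 51 of 78 ischemia cells, with median depths of 11114 and 18347 UMIs. In PT-like cells, with a like depth, it was detected in 11.6% and 24.3% of cells. In thin limb-like cells Sgk1 was the only one of 3 genes past the fold, against 10.3% of 5810 genes. Of 7 thin limb markers, 7 had a UMI in control cells and 6 in ischemia cells, where Sptssb was at 0, with summed levels of 6003 and 4285 CPM. Among them the urea transporter Slc14a2 stood at 2629 and 2574 CPM and the water channel Aqp1 at 1884 and 679.6 CPM. The endothelial markers in these cells summed to 11.8 and 84.9 CPM, with 6 of 8 detected in the control (Kdr and Cdh5 at 0) and 8 in the ischemia library. The proximal tubule markers summed to 4801 and 1156 CPM, with 11 of 12 detected in both (Slc22a7 at 0), and the injury gene Havcr1 stood at 0.589 and 298 CPM. The part of these in the Sgk1 level was not tested.

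In PT-like cells 3 of 8 genes were past the fold, against 8.93% of 12339 genes. They were Scnn1a, Scnn1g and Hsd11b2, all lower in the ischemia library and under 6 CPM in both, in the type taken as background above. Sgk1 stood at 9.35 and 18.4 CPM (1.96, 1.79 to 2.16) in these cells, just inside the fold.

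Tsc22d3 was highest in B cell-like cells, at 333 CPM (251 to 432) in the control and 277 CPM (212 to 355) in the ischemia library, with overlapping intervals. It was lower in the ischemia library in PT-like cells, at 14.7 and 8.61 CPM, in EC-like cells, at 66.2 and 42.8 CPM, and in Macrophage-like cells, at 48.5 and 35.2 CPM. Nr3c2 in EC-like cells stood at 127 and 75.6 CPM (0.595, 0.528 to 0.670).

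The other genes of the pathway were described from a list of 44. In CD-PC-like cells 39 had enough UMIs, with 1 past the fold upward and 7 downward, and a median ratio of 0.686 beside 0.887 for all genes. Among all genes 5.62% were past it upward and 8.64% downward, which is also the background of the counts per list below. The upward gene of the list was Edn1, endothelin-1, at 3.96 and 23.7 CPM (6.00, 3.37 to 11.6). Of 12 kinases and scaffolds around Sgk1, 10 had enough UMIs and 2 were past the fold downward, Klhl3 at 35.3 and 6.81 CPM and Wnk1 at 143 and 67.5 CPM, while the kinase Stk39 (SPAK) had the most UMIs, at 252 and 146 CPM. Of 12 corticosteroid-induced genes, 1 was past it upward, which was Edn1, and 3 were past it downward. The 3 were Per1 at 46.6 and 15.5 CPM, Zbtb16 at 20.7 and 8.47 CPM and Ndrg2 at 32.3 and 13.0 CPM. The median ratio of the 12 genes was 0.647. The most abundant of them was Dusp1, a phosphatase of MAP kinases, at 201 and 164 CPM.

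Among transport partners in CD-PC-like cells, 1 of 5 was past the fold, the apical potassium channel Kcnj1 (ROMK) at 278 and 93.1 CPM. Of 6 ENaC-cleaving proteases and inhibitors, 1 was past it, Tmprss2 at 208 and 102 CPM. The protease Furin had the highest ratio of them, at 45.4 and 48.5 CPM, and the inhibitor Spint2 the most UMIs, at 407 and 385 CPM. All 4 ubiquitin ligase and deubiquitinase genes were inside the fold (median ratio 0.703). So were the 5 genes with enough UMIs of the receptor and pre-receptor list, which also holds chaperones and immunophilins. Their median ratio was 1.35, that of the chaperone Hsp90aa1. The immunophilin Fkbp4 stood at 93.5 and 135 CPM and the chaperone Hsp90ab1 at 1237 and 1768 CPM. The glucocorticoid receptor Nr3c1 was lower in the ischemia library, at 27.1 and 17.6 CPM (0.647, 0.475 to 0.881), and Hsd11b1 had too few UMIs.

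In CNT-like cells 41 of the 44 had enough UMIs, with 2 past the fold upward and 3 downward, and a median ratio of 1.13 beside 1.12 for all genes. Among all genes 4.29% were past it upward and 1.56% downward. Edn1 stood at 5.84 and 48.3 CPM (8.27, 5.57 to 12.7) and the kinase Oxsr1 at 12.9 and 26.0 CPM. The downward ones were Wnk1 at 2129 and 616 CPM, Klhl3 at 364 and 104 CPM and Wnk4 at 179 and 68.2 CPM, all of the kinase system that sets the balance of distal sodium and potassium transport. The 6 proteases and inhibitors had a median ratio of 1.40 with 0 past the fold, and the protease St14 had the highest ratio of them, at 55.1 and 96.4 CPM. The 12 corticosteroid-induced genes had a median ratio of 1.27, with 1 past the fold upward (Edn1) and 0 downward.

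For each gene the most similar patterns were sought among 15681 genes over 44 pools, each a group of cells in 1 library, by Pearson's r of log2(CPM + 10). The pools share libraries and cell types, so r is a description. Scnn1b was most similar to Scnn1g (r = 0.941) and Scnn1g to Hsd11b2 (r = 0.968). Hsd11b2 was followed next by Kcne1 (r = 0.966) and Aqp2 (r = 0.951). Among the patterns most similar to Scnn1a were Kcnj10 (r = 0.948) and Tmem213 (r = 0.932), and its r was 0.750 with Scnn1b and 0.688 with Scnn1g. The nearest pattern was Magi1 (r = 0.882) for Nr3c2, Plk2 (r = 0.919) for Sgk1, Chka (r = 0.895) for Nedd4l and Ccm2 (r = 0.868) for Tsc22d3.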

How the data were processed

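Single cells from a control and an ischemic mouse kidney, dissociated with liberase, hyaluronidase and trypsin, were measured by 10X Genomics 3′ chemistry, 1 library per condition. The authors deposited whole-number UMI counts per gene and cell, made with Cell Ranger 7.0.0 against mm10 as the submitters' processing notes name them; whether intronic reads were counted is not given in the sources used here. Barcodes were kept with 200 or more genes, from 500 to 150000 UMIs and no more than 55% of UMIs from mitochondrial genes, 12586 of 15110 control and 13116 of 15257 ischemia barcodes, with medians of 3839 and 2138 UMIs.

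Libraries were integrated by anchors and clustered in Seurat 5.3.0 (R 4.3.3) with 2000 variable genes, 30 principal components and a resolution of 0.3. The 8 genes and their pathway genes were left out of the variable genes. Clusters were named from marker lists. That resolution merged types of the distal nephron, so the distal clusters were clustered again at 0.3 and the types of that step are reported. Doublets were scored with Scrublet in scanpy 1.11.5.

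UMIs were summed per type and library and divided by all UMIs of that type. Intervals are exact at 95% (Poisson for levels, Clopper-Pearson for shares, conditional binomial for ratios, scipy 1.17.1) and describe counting error alone. As each condition had 1 library, no test was run. The gene with the highest and lowest ratio of each list, and those with most UMIs, were the ones to be named, with injury genes and markers where a label was checked; some genes that this rule names are not reported here. Members and lists were chosen with earlier results of these data known. The scripts were tested on simulated data. Alternatives changed the filters, integration, resolution, scaling, depth and the cells of a type.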

Additional observations from a re-analysis of the deposited data

Results flagged for a closer look

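In 3 genes the ratio of ischemia to control CPM pointed in opposite directions in different cell types. The difference between the types was not tested, since each condition had 1 library. Scnn1b had a ratio of 0.505 in CD-PC-like cells and 2.45 in DCT-like cells. Sgk1 had a ratio of 0.622 in EC-like cells and 7.93 in Thin limb-like cells. Nedd4l had a ratio of 0.427 in CD-PC-like cells and 1.80 in TAL-like cells.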

How the results depend on the processing

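No paired analysis was possible because each condition had 1 library, and leaving out a replicate could not be done for the same reason. In CD-PC-like cells the ratios of all 8 genes stayed below 1 under each alternative that gave a value, and with the fold of 2 the number of genes past it ran from 5 to 7. The share of all genes past the fold was not computed under the alternatives, so counts of genes past it there have no background. Of the recomputed values of the main results, 262 stayed within the 95% interval of the reported value, or for counts of genes within 1.5 times, and 74 moved more. For the Scnn1a share of the subunit UMIs in CD-PC-like, CNT-like and DCT-like cells these numbers were 42 and 16. The cause was not tested for those that moved. Those of the Scnn1a share are not listed here, and those of the main results are the following. With a limit of 25% mitochondrial UMIs before clustering, the CNT-like ratios were 0.991 for Scnn1b, 0.982 for Scnn1g, 0.766 for Hsd11b2, 0.944 for Nr3c2 and 0.569 for Sgk1. There the DCT-like ratios were 1.25 for Scnn1b and 0.638 for Nr3c2. There 1 gene was past the fold in DCT-like cells. There the percent of subunit UMIs in CD-PC-like, CNT-like and Intercalated-like cells was 75.6 (control) and 78.7 (ischemia). With a minimum of 1000 UMIs per cell, the CNT-like ratios were 0.985 for Scnn1g, 0.621 for Hsd11b2 and 0.645 for Sgk1. There the percent of subunit UMIs in CD-PC-like, CNT-like and Intercalated-like cells was 54.8 (control) and 54.6 (ischemia). Without integration of the libraries, the CNT-like ratio was 1.84 for Nedd4l. There the DCT-like ratios were 0.590 for Scnn1a, 1.60 for Nr3c2, 2.63 for Nedd4l and 0.778 for Tsc22d3. At a clustering resolution of 0.6, 1 gene was past the fold in DCT-like cells. With cells gated on marker UMIs in place of clusters, the CD-PC-like ratio was 0.399 for Nedd4l. There the CNT-like ratios were 1.05 for Scnn1b, 0.909 for Scnn1g, 0.854 for Hsd11b2, 0.878 for Nr3c2 and 1.21 for Nedd4l. There the DCT-like ratios were 0.395 for Scnn1a and 1.84 for Nedd4l. There the percent of subunit UMIs in CD-PC-like, CNT-like and Intercalated-like cells was 66.0 (control) and 76.2 (ischemia). By CPM averaged over single cells, the CD-PC-like ratios were 0.520 for Scnn1g, 0.499 for Hsd11b2, 0.945 for Sgk1, 0.485 for Nedd4l and 0.429 for Tsc22d3. There the CNT-like ratio was 0.925 for Hsd11b2. There the DCT-like ratio was 1.80 for Nedd4l. There 1 gene was past the fold in DCT-like cells. Per nuclear UMIs, with mitochondrial ones left out of the total, the CD-PC-like ratios were 0.390 for Hsd11b2 and 0.395 for Nedd4l. There the CNT-like ratio was 0.929 for Hsd11b2. Without the cells in the top 8% of doublet scores, the percent of subunit UMIs in CD-PC-like, CNT-like and Intercalated-like cells was 64.4 (control). With cells over 25% mitochondrial UMIs left out after naming, the CNT-like ratios were 0.476 for Scnn1a, 0.896 for Scnn1b, 0.886 for Scnn1g, 0.717 for Hsd11b2, 0.966 for Nr3c2 and 0.645 for Sgk1. There the DCT-like ratios were 0.579 for Scnn1a and 0.563 for Nr3c2. There 1 gene was past the fold in CNT-like cells and 1 gene was past the fold in DCT-like cells. There the percent of subunit UMIs in CD-PC-like, CNT-like and Intercalated-like cells was 76.1 (control) and 78.6 (ischemia). At a sub-clustering resolution of 0.5, the CNT-like ratios were 0.984 for Scnn1g, 0.618 for Hsd11b2, 0.948 for Nr3c2 and 1.39 for Nedd4l. There the DCT-like ratio was 0.850 for Nr3c2. There the percent of subunit UMIs in CD-PC-like, CNT-like and Intercalated-like cells was 55.5 (control) and 55.5 (ischemia). There the ratio of CNT-like to CD-PC-like CPM of the 3 subunits was 0.716 (control) and 1.52 (ischemia). Without CD-PC-like cells that held 3 or more intercalated marker UMIs, the CD-PC-like ratio was 0.455 for Hsd11b2. With ischemia CNT-like cells weighted to the control mix, the CNT-like ratios were 1.01 for Scnn1b, 0.925 for Scnn1g, 0.677 for Hsd11b2, 0.596 for Sgk1 and 1.46 for Nedd4l. Thinned to 1000 UMIs per cell, the percent of CD-PC-like cells with all 3 subunits was 2.38 (control) and 0.676 (ischemia). Thinned to 3000 UMIs per cell, the percent of CD-PC-like cells with all 3 subunits was 21.7 (control) and 1.44 (ischemia). The median log2 ratio of all genes in CD-PC-like cells was -0.173 with all UMIs as the total, -0.286 with nuclear UMIs and -0.0365 by the mean of cells, and all 8 genes had lower ratios than the median in each case. With the limit of 25% set before clustering no sub-cluster was named CD-PC-like, so that type has no value there, and leaving out Scrublet doublets gave no value because 0 were called. The options to leave out high doublet scores, cells over 25% after naming, cells with intercalated markers, and to weight the mix were chosen after seeing the data. Counts of UMIs limit the rare genes, such as Tsc22d3 in CD-PC-like cells, and no alternative stands in for a second library.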
